A study of Mus musculus with 4 samples.

Results

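The 10 genes Fbxw13, Fbxw14, Fbxw15, Fbxw16, Fbxw18, Fbxw19, Fbxw20, Fbxw22, Fbxw24 and Fbxw28 form most of a cluster of F-box genes on mouse chromosome 9, and they were followed from the oocyte to the early blastocyst. They were taken by symbol and by no cut-off on a measured value, but with earlier results of these data known. All 10 were found among the 20171 genes measured. In the isoform measurements they held 232 of 68012 isoforms. In the study, cDNA of single cells was sequenced end to end by PacBio, and random tags (unique molecular identifiers, UMIs) told the RNA molecules of a cell apart. MII oocytes came from C57BL/6J females 6 to 8 weeks old, 20 h after hCG and without mating. Zygotes (22 to 24 h), early 2-cell (E2C, 30 to 32 h), late 2-cell (L2C, 46 to 48 h), 4-cell (54 to 56 h), 8-cell (68 to 70 h), 16-cell and 32-cell (78 to 80 h) and early blastocyst cells (88 to 90 h) came from such females mated with DBA/2NCrl males, while the strain label of the samples reads DBA/2J x C57BL/6J. E14 Tg2A mouse embryonic stem cells (mESC), a male line, were read alongside.

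Of the 161 cells, 121 carry the number of their oocyte, zygote or embryo, which makes 43 replicates. There were 10 oocytes and 9 zygotes, and the embryos numbered 5 at E2C, 6 at L2C, 5 at the 4-cell, 4 at the 8-cell and 4 at the 16-cell stage. The other cells (22 32-cell, 13 blastocyst, 5 mESC) name no embryo and are given by range and median. The runs may have reused embryo numbers, which is not stated, so p-values measure only the spread between these numbered samples. Levels are copies per 100,000 UMIs of a cell, that is molecules as a share of all molecules counted, and need no scaling by length because each full-length read is 1 molecule. A change in a level can thus not be told apart from a change in the other RNA of the cell. Oocytes held 166731 to 255836 gene UMIs and zygotes 194072 to 389775, but E2C cells 31037 to 105534, L2C cells 17971 to 67963 and later cells 4985 to 60831, so levels after the E2C stage rest on few molecules. The oocytes were high in 9 oocyte markers such as Zp3 and Gdf9, whose summed level was 3128 to 4275, against 4.42 to 9.81 for the 7 cumulus and granulosa markers measured.

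F-box proteins are the exchangeable part of SCF ubiquitin ligases: the F-box binds SKP1, which sits on the CUL1 scaffold with the RING protein RBX1, and the rest of the protein picks the substrate to be ubiquitinated. In the Fbxw proteins the substrate end carries WD40 repeats, which fold into a propeller. Oocytes stop transcription before they mature, so the RNA of MII oocytes and most of that of zygotes is stored maternal RNA, much of which is destroyed while the embryo starts its own transcription, weakly in the zygote and early 2-cell stage and strongly in the late 2-cell stage.

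All 10 genes lie on the minus strand of chromosome 9 (GRCm38), between chr9:109179227 and 109702700, and 4 further genes of the same kind (Fbxw21, Fbxw25, Fbxw26, Fbxw27) lie among or beside them. Each reference transcript has 10 exons, with a coding length of 1392 to 1407 bases, and the internal exons have almost the same lengths in every member. The coding sequences of the 45 pairs were 79.5% to 99.1% identical over aligned bases, with a median of 83.5%. Fbxw14 and Fbxw28 are the closest pair, with 13 mismatches over 1398 coding bases (99.1%) and 345 identical bases in the longest stretch. Fbxw22 is closest to Fbxw14 (92.7%), Fbxw16 and Fbxw19 are closest to each other (88.7%), and the other members differ from their nearest relative at 173 to 209 bases. Reads of Fbxw14 and Fbxw28 could therefore have been divided between the copies by a few bases, and levels of these 2 genes are also given as a sum.

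The sequence just upstream of the annotated starts shows how alike these genes are. RefSeq promoter windows (GRCm38.p6, 300 bases each) were matched for 8 of the 10 members, all except Fbxw13 and Fbxw22, and the 28 pairs were 64.7% to 97.0% identical (median 82.7%). The longest runs found in all 8 had 12 bases, and 1 of them (in capitals below, 5′ to 3′ on the minus strand) occurred in 11 of 32851 mouse promoter windows (0.0335%). It was picked for being in the 8 member windows, which are among these 11, so its rarity tests nothing. The windows of the 4 most abundant members with an entry are shown, at chr9:109287698-109287727, chr9:109626086-109626115, chr9:109339681-109339710 and chr9:109495905-109495934.
Fbxw14: aatcctgtgAAATCTTTGGCCaagtcttta
Fbxw24: aatcctgtgAAATCTTTGGCCgagtcttta
Fbxw28: aatcctgtgAAATCTTTGGCCaagtcttta
Fbxw19: aatcctgtgAAATCTTTGGCCaagtcttta
The run starts 26 to 71 bases before the annotated start in the 8 members. The deposited model of the most abundant isoform began upstream of it in all 8, at positions -84 (Fbxw18) to -696 (Fbxw28) relative to the annotated start, so these bases lie inside the sequenced models; a collapsed model keeps 1 start for all its reads. On both strands, TAATTG, a homeobox element, was in 0 of 8 windows (8.00% of all promoters), TATAAA, the TATA box, in 0 of 8 (13.6%), CACGTG in 0 of 8 (7.15%) and CANNTG, the E-box pattern that includes CACGTG, in 8 of 8 (72.3%). The windows follow annotated starts, while isoforms starting within 50 bases of one made up 4.76% of the members' isoform level in oocytes. For Fbxw28 and Fbxw19 the whole window lies inside the model of the most abundant isoform. A match or its lack describes these letters in this window and nothing more.

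A second set of sequences belongs to exons that the members leave out of part of their transcripts (values further on). Exon 6 has 159 coding bases in all members, and it is shown for Fbxw14 (chr9:109277188-109277346), Fbxw28 (chr9:109329275-109329433), Fbxw18 (chr9:109691501-109691659) and Fbxw22 (chr9:109384967-109385125), from GENCODE M21 on GRCm38, minus strand, 5′ to 3′, with bases that differ from Fbxw14 in capitals.
Fbxw14: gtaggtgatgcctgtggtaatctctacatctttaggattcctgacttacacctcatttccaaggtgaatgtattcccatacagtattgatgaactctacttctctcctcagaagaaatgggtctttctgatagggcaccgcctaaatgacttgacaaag
Fbxw28: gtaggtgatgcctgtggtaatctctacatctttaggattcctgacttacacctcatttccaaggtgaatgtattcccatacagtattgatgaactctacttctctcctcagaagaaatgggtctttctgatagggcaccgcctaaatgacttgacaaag
Fbxw18: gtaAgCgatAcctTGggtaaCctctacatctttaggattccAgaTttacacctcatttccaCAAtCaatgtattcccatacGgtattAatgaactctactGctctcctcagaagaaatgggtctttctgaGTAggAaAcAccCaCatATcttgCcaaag
Fbxw22: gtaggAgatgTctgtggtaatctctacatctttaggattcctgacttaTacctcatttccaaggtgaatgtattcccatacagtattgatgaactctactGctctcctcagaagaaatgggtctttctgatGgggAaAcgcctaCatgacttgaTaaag
The exon was identical in Fbxw14 and Fbxw28, differed at 9 bases in Fbxw22 and at 26 in Fbxw18. Exon 5 has 210 coding bases in Fbxw20 (chr9:109225859-109226068) and Fbxw24 (chr9:109609885-109610094), with 27 bases of Fbxw24 that differ from Fbxw20 in capitals.
Fbxw20: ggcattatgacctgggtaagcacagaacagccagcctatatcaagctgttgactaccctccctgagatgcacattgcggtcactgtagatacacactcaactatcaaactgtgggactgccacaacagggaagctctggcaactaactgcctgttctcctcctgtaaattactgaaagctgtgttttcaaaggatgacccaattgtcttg
Fbxw24: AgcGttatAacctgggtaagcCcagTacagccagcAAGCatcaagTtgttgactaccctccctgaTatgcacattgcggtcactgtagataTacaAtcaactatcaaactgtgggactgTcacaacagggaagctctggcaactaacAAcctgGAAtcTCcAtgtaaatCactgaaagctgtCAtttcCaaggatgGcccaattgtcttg

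In oocytes the 10 genes together gave 1003 ± 195 copies per 100,000 UMIs (SD, n = 10), a median of 0.932% of all molecules counted. The levels spanned more than 2 orders of magnitude. Fbxw14 (lowest, median and highest oocyte 210.0, 241 and 352), Fbxw24 (176, 216 and 327) and Fbxw28 (166, 194 and 316) were the most abundant. Their ranges overlapped, although Fbxw14 was above Fbxw24 in 10 of 10 oocytes, by 1.04 to 1.20 times, and Fbxw24 above Fbxw28 in 9 of 10.

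Fbxw22 came next, with 95.5, 105 and 124 copies as its lowest, median and highest oocyte. Every oocyte held less Fbxw22 than any oocyte held of the 3 leading genes, and more than any held of Fbxw19 (44.2, 55.4 and 91.1). Fbxw19 and Fbxw18 (34.6, 46.2 and 74.6) overlapped, with Fbxw19 higher in 9 of 10 oocytes. Fbxw20 (17.6, 36.3 and 57.5), Fbxw15 (14.7, 22.9 and 100.8) and Fbxw16 (17.0, 20.0 and 43.3) overlapped with their neighbours in the order: Fbxw18 was above Fbxw20 in 7, Fbxw20 above Fbxw15 in 8 and Fbxw15 above Fbxw16 in 6 of the 10 oocytes. Fbxw13 was the lowest by far, at 0.487, 1.11 and 3.75 copies and 34 UMIs over all oocytes (1.68 pooled copies, exact Poisson 95% interval 1.16 to 2.34, counting error only). Every member gave at least 1 UMI in each of the 10 oocytes.

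The order of the means was the same for all 10 genes in the isoform measurements and in 4 intact oocytes of a separate, 4th run. Against the isoform levels of the oocytes of the first 3 runs, the 4th run gave 0.437 (Fbxw20) to 0.660 (Fbxw14) times the level. The units are not quite the same. The 4th run was scaled to 100,000 of its deposited isoform UMIs, while the isoform values of the first 3 runs sum to 84419 to 97144 per cell. Against the gene levels the ratios were 0.592 (Fbxw20) to 0.900 (Fbxw14). Of the sum of the 10, Fbxw14 made up 25.5% ± 0.861 of the sum, Fbxw24 22.8% ± 1.03, Fbxw28 20.8% ± 0.945 and Fbxw22 11.1% ± 1.71 (SD, n = 10). The shares of the lower members spread more for their size, with 3.78% ± 1.02 for Fbxw20, 2.78% ± 1.497 for Fbxw15 and 0.156% ± 0.0764 for Fbxw13.

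**Figure D1:**
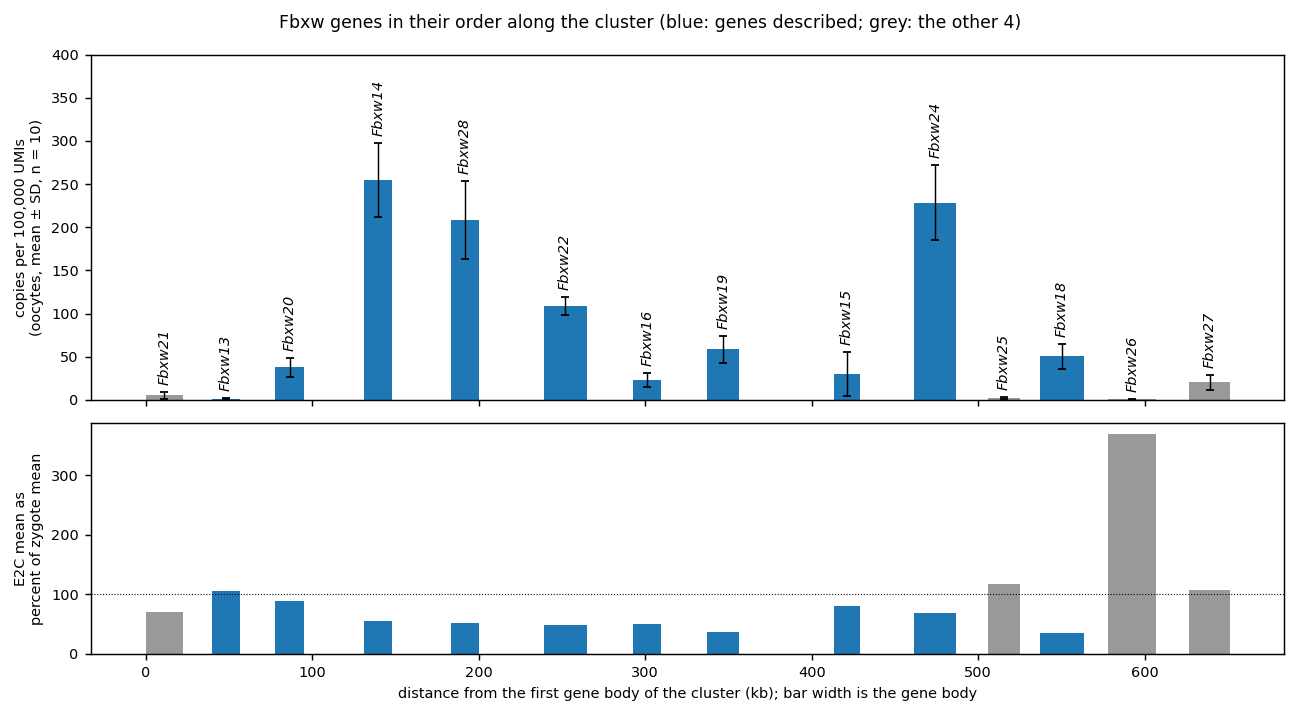
Fbxw genes at their distance in kb from the first gene body of the cluster, each bar as wide as the gene body. The upper panel plots copies per 100,000 UMIs in oocytes (mean ± SD, n = 10) and the lower panel the E2C mean as a percent of the zygote mean, without an error bar, with a dotted line at 100%. Fbxw14, Fbxw28, Fbxw22 and Fbxw24 stand highest in oocytes, and Fbxw26, 1 of the 4 grey genes not among the 10, stands at 369% of its zygote mean in E2C.

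Stages were compared in adjacent pairs with limma on log2(value + 1) of the 43 oocytes, zygotes and embryos over all genes, and a call needed a log2 difference beyond 1 either way together with p under 0.01 before adjustment. Adjustment followed Benjamini-Hochberg across the 11682 genes that passed the filter on low values. All 10 members passed, each through the stages in which it is high.

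Fbxw15 was the only member called from oocyte to zygote, with a log2 difference of 1.17 ± 0.24 (SE, limma, adjusted p = 0.000275), where 2.92% of all genes tested were called higher. Its levels were 14.7, 22.9 and 100.8 in oocytes and 26.9, 66.8 and 118 in zygotes (lowest, median, highest). The groups overlapped: oocyte 6 held more Fbxw15 than 8 of the 9 zygotes, and zygotes 7, 8 and 9 lay within the range of the other oocytes or just above it. The sequencing run moved with these values. In the 1st run the mean was 25.2 in 5 oocytes and 65.8 in 4 zygotes, in the 3rd 18.5 in 4 oocytes and 29.2 in 3 zygotes, and in the 2nd 100.8 in its single oocyte and 92.7 in 2 zygotes. With the run as a block the difference was 0.89 ± 0.18 (limma, adjusted p = 0.00945), under the fold limit, and edgeR (log2 difference 0.96) and DESeq2 (0.92) were under it too.

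Fbxw13 (0.68 ± 0.20, limma adjusted p = 0.0142) and Fbxw16 (0.63 ± 0.21, limma adjusted p = 0.0304) had differences under the fold limit. Fbxw16 spanned 17.0, 20.0 and 43.3 in oocytes and 21.6, 37.6 and 46.5 in zygotes, with overlap. The most abundant members had small differences: 0.03 ± 0.19 for Fbxw14, 0.32 ± 0.21 for Fbxw28, 0.34 ± 0.19 for Fbxw24 and -0.01 ± 0.23 for Fbxw22. As a set, the 10 genes summed to 1177 ± 199 in zygotes (SD, n = 9), 1.17% of molecules at the median, and their median log2 difference was 0.32 beside 0.07 over all genes tested.

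**Figure D2:**
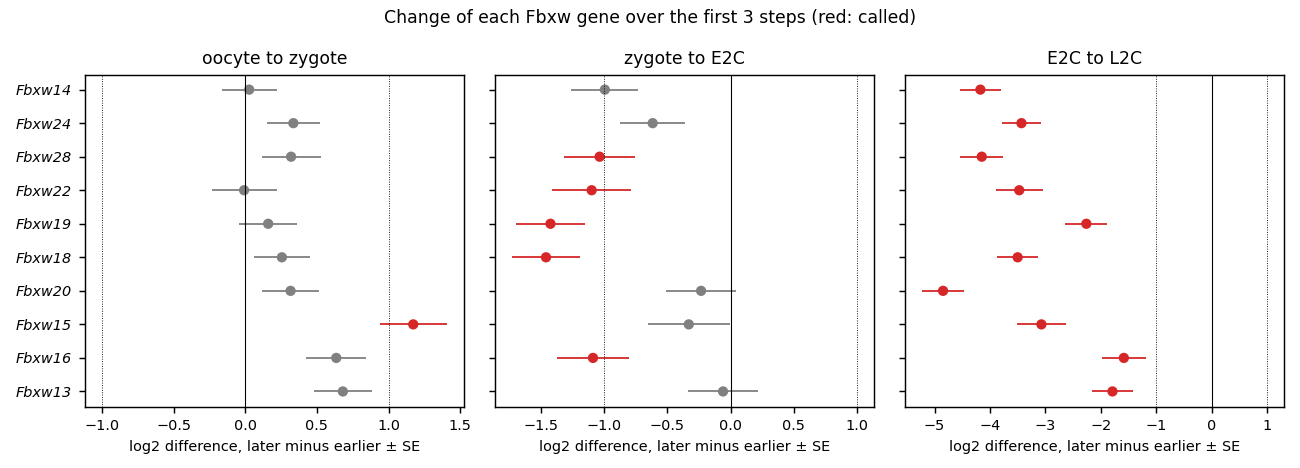
Log2 difference (later minus earlier stage, ± SE) of each member over the first 3 steps, on a log2(value + 1) scale with a separate axis range in each panel, red where called and dotted lines at the fold limit. Fbxw15 is the only red point from oocyte to zygote, 5 members are red from zygote to E2C, and all 10 from E2C to L2C.

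From zygote to E2C, Fbxw18, Fbxw19, Fbxw22, Fbxw16 and Fbxw28 fell, 5 of 10 against 2.75% of all genes called lower, while Fbxw20, Fbxw15 and Fbxw13 had E2C means of 88.3%, 80.5% and 105% of the zygote mean. The median log2 difference of the members was -1.01, beside 0.11 over all genes. Whether the members differ from each other in this step was not tested. The run of the E2C and later cells is not given in the sources used here, so from this step on run and stage cannot be told apart.

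Fbxw18 held 28.4, 63.2 and 77.5 copies in zygotes (lowest, median, highest) and 33.7, 21.7, 15.9, 19.7 and 15.7 in the 5 E2C embryos. Apart from 1 low zygote the groups were separate, and the log2 difference was -1.46 ± 0.27 (limma, adjusted p = 6.99e-05). Fbxw19 held 41.3, 71.3 and 93.8 in zygotes and 26.8, 14.5, 23.2, 26.7 and 28.1 in E2C embryos, without overlap (-1.42 ± 0.28, limma adjusted p = 0.000141). Fbxw22 held 89.9, 105 and 127 in zygotes and 71.1, 30.8, 41.0, 58.1 and 55.7 in E2C embryos, again without overlap (-1.10 ± 0.31, limma adjusted p = 0.0105). These were the 2 members of the 10 whose zygotes and E2C embryos did not overlap, and over all genes tested 1.56% were lower without overlap.

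Fbxw16 held 21.6, 37.6 and 46.5 in zygotes and 25.1, 7.58, 11.1, 21.1 and 22.7 in E2C embryos, the 2 groups overlapping (-1.09 ± 0.29, limma adjusted p = 0.00568). The near copies Fbxw14 and Fbxw28 lay on either side of the fold limit. Fbxw28 held 209.9, 241 and 350.4 in zygotes and 228, 73.9, 113, 113 and 135 in E2C embryos (-1.03 ± 0.28, limma adjusted p = 0.00774). Fbxw14 held 202, 264 and 331 in zygotes and 219, 75.4, 108, 118 and 173 in E2C embryos (-0.99 ± 0.26, limma adjusted p = 0.00621). In both, E2C embryo 1 lay among the zygotes and the other 4 below them. Summed as 1 gene they had a log2 difference of -1.02 ± 0.26 (limma, adjusted p = 0.00473), past the fold limit.

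Fbxw24 held 182, 294 and 413 in zygotes and 346, 115, 156, 174 and 204 in E2C embryos, with overlap and no call (-0.62 ± 0.26, limma adjusted p = 0.0973). It was the most abundant member in zygotes and in E2C, at 29.2% ± 1.36 of the sum in E2C against 22.8% ± 1.03 in oocytes (SD, n = 5 and 10), while Fbxw14 went from 25.5% ± 0.861 to 20.4% ± 1.98. Fbxw20 held 33.5, 41.8 and 57.1 in zygotes and 61.1, 25.7, 27.4, 40.5 and 40.5 in E2C embryos (-0.23 ± 0.28, limma adjusted p = 0.681). Fbxw15 held 26.9, 66.8 and 118 in zygotes and 84.3, 30.5, 37.9, 41.1 and 46.0 in E2C embryos (-0.33 ± 0.32, limma adjusted p = 0.591). Fbxw13, with 23 UMIs in all E2C cells, held 1.03, 2.75 and 5.74 in zygotes and 3.49, 2.998, 2.51, 1.45 and 5.38 in E2C embryos (-0.06 ± 0.27, limma adjusted p = 0.946). All 5 E2C embryos lay inside the zygote range for Fbxw15 and Fbxw13, while for Fbxw20 1 lay above it and 2 below.

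E2C embryo 1 was highest and embryo 2 lowest for 8 of the 10 members each, with sums of 1098 and 398. The sister cells of an embryo differed by 1.09 to 1.35 times in the sum (5 pairs), less than the embryos did. At L2C the sister cells differed by 1.05 to 3.22 times. The count of 5 members moved with single embryos: it was 2 without E2C embryo 2 and 3 without embryo 3.

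All 10 members fell from E2C to L2C, where 22.8% of all genes were called lower. The sum went from 675 ± 265 (SD, n = 5; embryos 398 to 1098) to 62.0 ± 29.4 (SD, n = 6; 25.6 to 106), and in molecules from 5695 UMIs in 10 E2C cells to 319 in 11 L2C cells. The median log2 difference of the members was -3.45, beside 0.03 over all genes. For 7 members (Fbxw14, Fbxw15, Fbxw18, Fbxw20, Fbxw22, Fbxw24 and Fbxw28) every L2C embryo was below every E2C embryo, as in 14.6% of all genes tested.

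Fbxw20 had the largest fitted difference, except with a pseudocount of 5 (-2.98, Fbxw14 -3.51 and Fbxw28 -3.50). Its 5 E2C embryos held 25.7 to 61.1 copies and its 6 L2C embryos 0, 0 and 2.48 (lowest, median, highest), with 0 UMIs in 4 of them, and the log2 difference was -4.85 ± 0.38 (limma, adjusted p = 1.36e-16). Over all L2C cells it gave 4 UMIs, 0.667 copies per 100,000 with an exact Poisson 95% interval of 0.182 to 1.71. Its E2C mean was 88.3% of the zygote mean and its L2C mean 1.40% of the E2C mean.

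Fbxw14 (0.875, 6.97 and 14.4 copies in L2C, log2 difference -4.17 ± 0.36) and Fbxw28 (2.58, 7.85 and 12.2, -4.15 ± 0.39) were left at 5.60% and 5.62% of their E2C means. Their sum as 1 gene had a difference of -4.21 ± 0.36 (limma, adjusted p = 3.22e-15). Fbxw18 (-3.50 ± 0.37), Fbxw22 (-3.47 ± 0.43), Fbxw24 (-3.43 ± 0.35) and Fbxw15 (-3.07 ± 0.44) fell too, to 8.17% to 10.5% of the E2C mean, with Fbxw18 at 4.59% without L2C embryo 1. Fbxw24 remained the most abundant member in L2C, at 10.5, 19.0 and 27.8 copies.

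Fbxw19 (2.35, 3.85 and 22.3 in L2C, -2.26 ± 0.38) and Fbxw16 (1.61, 6.96 and 16.7, -1.59 ± 0.39, limma adjusted p = 0.000465) stood at 31.6% and 41.2% of the E2C mean, and their L2C range reached into that of E2C. L2C embryo 1, which is a single cell of 17971 UMIs, was the highest in both, at 22.3 and 16.7 copies, where 1 UMI is worth 5.56 copies. Without it Fbxw19 stood at 19.2% of the E2C mean, with no overlap (highest L2C embryo 10.5), and Fbxw16 at 30.4%, still overlapping. Fbxw13 fell by 1.79 on the log2 scale and was at 0 UMIs in 5 of the 6 L2C embryos, its L2C level resting on 1 UMI in embryo 1. These calls of all 10 members held in every alternative except a pseudocount of 5, which called 9.

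**Figure D3:**
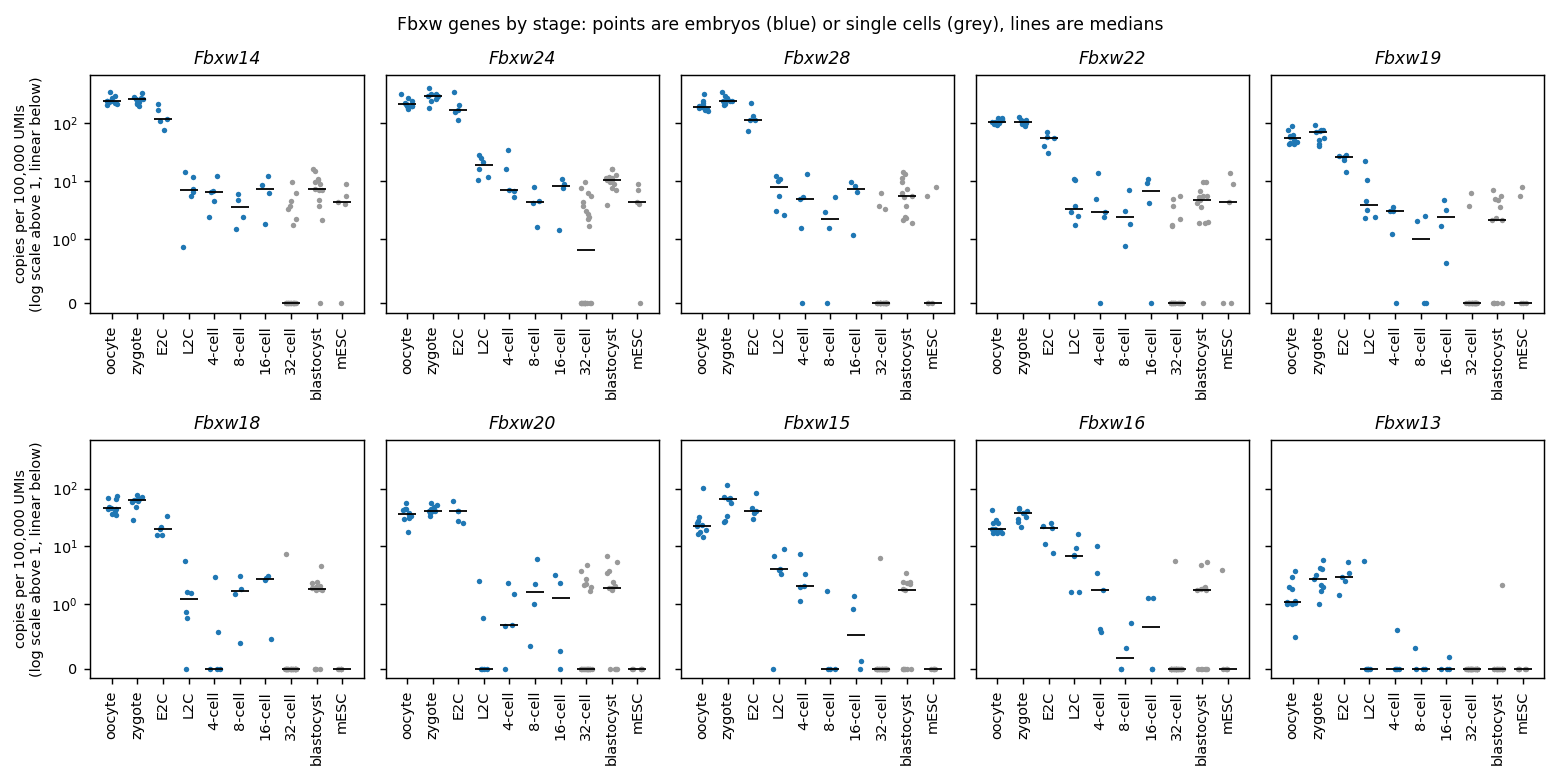
Copies per 100,000 UMIs of each member by stage, on an axis that is logarithmic above 1 and linear below it. Blue points are oocytes, zygotes or embryos, grey points single 32-cell, blastocyst or mESC cells, and lines are medians. The 9 genes other than Fbxw13 stand higher in oocytes, zygotes and E2C than in later stages and drop between E2C and L2C. Fbxw13 is at a few copies or fewer in oocytes, zygotes and E2C, and gave at most 1 UMI over all cells of each later stage.

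After the L2C stage the cluster stayed low. The members summed to 40.9 ± 21.3 in 4-cell (SD, n = 5), 19.9 ± 8.59 in 8-cell (n = 4) and 34.5 ± 19.6 in 16-cell embryos (n = 4), on 191, 155 and 317 UMIs. Fbxw16 was called lower from L2C to 4-cell, 1 of 10 beside 4.28% of all genes, from 1.61, 6.96 and 16.7 in L2C to 3.47, 10.0, 1.78, 0.570 and 0.622 in the 4-cell embryos. Its log2 difference was -1.30 ± 0.45 (limma, adjusted p = 0.0940), and the call was lost without 4-cell embryo 4 or 5, whereas 2 members were called without 4-cell embryo 1. The value of 10.0 belongs to 4-cell embryo 2, in whose cell of 4985 UMIs 1 UMI is worth 20.1 copies. None of the 10 was called from 4-cell to 8-cell by limma, edgeR or DESeq2, where 15.0% of genes were called in either direction, and 3 members (Fbxw14, Fbxw15, Fbxw24) had an unadjusted limma p under 0.05.

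Fbxw14 was called higher from 8-cell (4.75, 2.44, 5.99 and 1.503) to 16-cell (12.2, 1.83, 6.34 and 8.46), 1 of 10 beside 1.9% of all genes, with a difference of 1.09 ± 0.37 (limma, adjusted p = 0.144) and overlapping groups. Fbxw28 had a difference of 1.02 ± 0.39 at that step (limma, adjusted p = 0.232). Neither passes an adjusted limit, and without 8-cell embryo 4 or 16-cell embryo 1 no member was called, while 3 were called without 16-cell embryo 2 and 2 without E2C embryo 1, 4-cell embryo 2, 8-cell embryo 1 or 16-cell embryo 4.

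The low late levels are set beside those of the 9 oocyte markers. At the median, the members stood at 65.8% of their oocyte level in E2C and the oocyte markers at 19.9%. In L2C the values were 6.68% and 3.13%, in 4-cell 3.04% and 5.77%, in 16-cell 4.30% and 7.19%, in 32-cell cells 0.503% and 0.549% and in blastocyst cells 4.10% and 7.61%. Cultured mESCs, which are not oocytes or embryos, held members and markers too, at 2.26% and 3.84%. 16-cell embryo 2 was lowest of its stage in both (6.99 and 15.5 copies, the other 3 embryos 34.5 to 51.0 and 234 to 368), and 8-cell embryo 2 likewise (10.9 and 26.1). 4-cell embryo 2 was lowest of its stage in the markers (49.7, the other 4 embryos 182 to 358) but second highest of 5 in the members (57.3). It rests on few molecules: in its cell of 4985 UMIs, 1 UMI is worth 20.1 copies. That cell held 80.2 copies of the members and 60.2 of the markers, and its sister cell 34.3 and 39.2. The part of RNA from other cells of the pool in these late values was not tested.

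Among the single cells, 32-cell cells summed to 0 to 29.2 copies of the members (median 4.69, 22 cells), blastocyst cells to 20.7 to 59.5 (median 38.3, 13 cells) and mESCs to 12.9 to 27.95 (median 21.03, 5 cells). In mESCs this is 22 UMIs in all, with Fbxw14, Fbxw22 and Fbxw24 at 5 each and Fbxw13, Fbxw15, Fbxw18 and Fbxw20 at 0, which allows up to 2.90 copies (3 UMIs of 103590, counting error only). Fbxw24 led in blastocyst cells, at 3.95, 10.7 and 16.5 copies (lowest, median, highest), as it did in E2C and L2C.

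**Figure D4:**
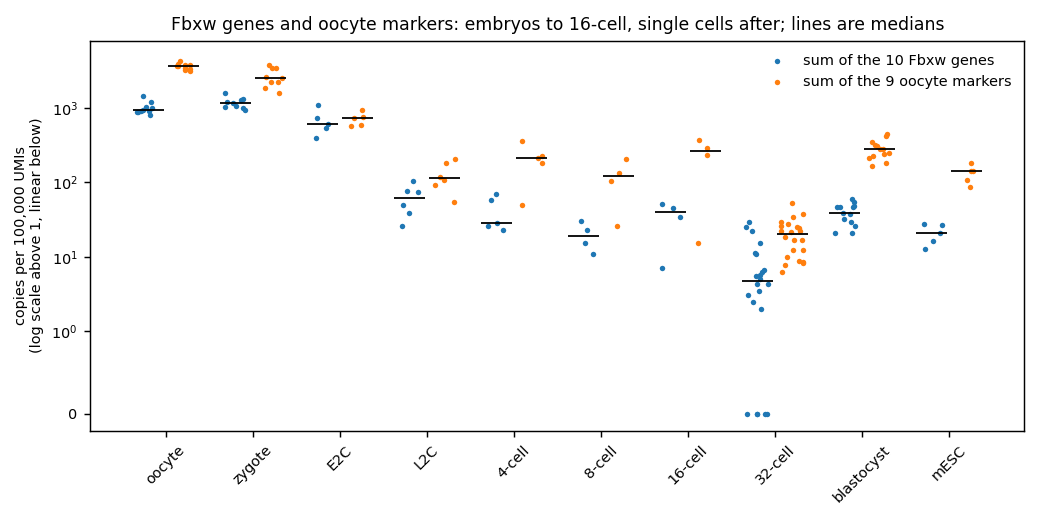
Summed level of the 10 Fbxw genes (blue) and of 9 oocyte markers (orange) by stage, in copies per 100,000 UMIs on an axis that is logarithmic above 1; points are embryos up to 16-cell and single cells after, and lines are medians. The markers fall from oocyte to L2C and the Fbxw genes fall mainly from E2C to L2C, and both stay low but above 0 in most later cells, mESCs included.

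The most abundant isoform of every member was the 10-exon transcript that matches all splice junctions of its reference (a full-splice match, FSM). It made up 54.0% ± 6.68 (Fbxw20) to 75.8% ± 3.82 (Fbxw24, SD, n = 10) of the summed isoform level of its gene in oocytes, leaving out the rare Fbxw13. Isoform levels are higher than gene levels for the same molecules because they are relative to the smaller number of UMIs assigned to isoforms. Of the 232 isoforms, 23 were FSM, 98 lacked 1 or more exons at an end (ISM), 53 joined known splice sites in a combination absent from the annotation (NIC) and 58 used a splice site absent from it (NNC). Only these 4 classes were kept by the authors, so transcripts that join 2 genes could not appear. By level, FSM made up 76.9% ± 2.88 in oocytes, ISM 14.8% ± 3.13, NIC 5.20% ± 0.681 and NNC 3.16% ± 0.453 (SD, n = 10), beside 73.8% ± 1.15, 15.9% ± 1.25, 4.89% ± 0.300 and 5.40% ± 0.195 over all genes. In E2C the ISM share of the members was 23.1% ± 9.18 (n = 5), beside 19.5% ± 2.89 over all genes, a spread between embryos wider than the difference.

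Members left out different internal exons, and the exons described were chosen after their values were seen. Each share is over the isoforms that join the flanking exons directly or hold both junctions of the exon. Exon 6, whose sequence is shown above, was absent from 33.2% ± 2.92 of Fbxw14 transcripts in oocytes (SD, n = 10; lowest, median and highest oocyte 28.4%, 33.3% and 36.9%) and from 26.9% ± 3.77 of Fbxw28 transcripts (19.7%, 26.6% and 34.2%). In Fbxw18 it was absent from 6.40% ± 4.35, and in Fbxw22, which differs from Fbxw14 at 9 of the 159 bases, none of the isoforms left out exon 6 alone and 32 held both its junctions. All 10 oocytes thus held transcripts assigned to Fbxw14 and to Fbxw28 with and without the exon. Reads could have been divided between these near copies, in which exon 6 is identical, and no share was taken over the pair. The 159 bases of exon 6 are a multiple of 3, so the reading frame goes on past it.

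Fbxw20 left out exon 5 instead, in 33.2% ± 5.17 of transcripts (lowest, median and highest oocyte 25.8%, 33.9% and 39.3%). The 210 bases of this exon also keep the frame. Fbxw24 left out the same exon in 5.22% ± 0.937, every oocyte below every oocyte of Fbxw20. Fbxw15 left out exon 9 in 20.2% ± 6.70 (12.1%, 19.7% and 33.3%), a coding exon of 125 bases that is not a multiple of 3. Exon 3 (164 bases, not a multiple of 3) was left out in 6.28% ± 2.45 of Fbxw19 and 5.85% ± 2.50 of Fbxw22 transcripts, and exon 2 (38 bases) in 5.69% ± 2.68 of Fbxw18. No other internal exon of the 9 members above 10 copies was left out singly in over 3% of transcripts. The second isoform of Fbxw22 lacked exons 3 and 4 together, and made up 11.3% ± 2.99 of the gene in oocytes.

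**Figure D5:**
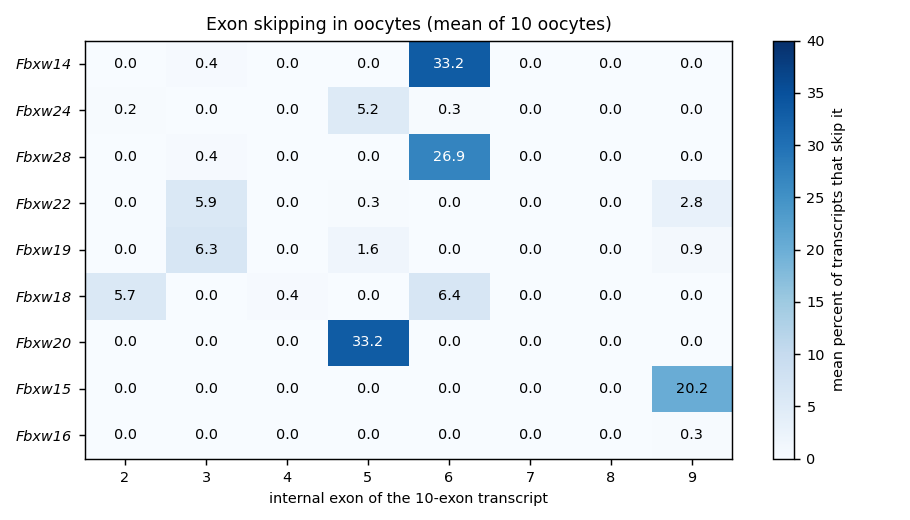
Mean percent of transcripts in 10 oocytes that leave out each internal exon (columns, exon number in the 10-exon transcript) of 9 members (rows), colour and number giving the same value. Exon 6 of Fbxw14 and Fbxw28, exon 5 of Fbxw20 and exon 9 of Fbxw15 stand out, and most other cells are at or near 0. Fbxw13 is left out because its isoforms averaged under 2 copies.

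The same shares were taken at the next stages. Exon 6 was absent from 36.0% ± 3.79 of Fbxw14 in zygotes (n = 9) and 29.5% ± 6.91 in E2C (n = 5), and from 31.7% ± 4.40 and 24.7% ± 2.85 of Fbxw28. For exon 5 of Fbxw20 the values were 31.8% ± 2.95 and 27.7% ± 6.06, and for exon 9 of Fbxw15 16.7% ± 4.43 and 11.3% ± 2.74. For each isoform its share of the gene, after an arcsine square root transform, was compared by limma. From oocyte to zygote 0 of 156 isoform shares of the 10 genes had an adjusted p under 0.05, as did 0.0% of all 19492 tested, with 6 at an unadjusted p under 0.05 and a lowest adjusted p of 0.677. From zygote to E2C 0 of 106 shares of 9 genes did, against 0.433% of 10843, with 10 at an unadjusted p under 0.05. The lowest adjusted p at that step, 0.221 in limma, belonged to the 9-exon isoform of Fbxw28 without exon 6 (25.2% of its gene in zygotes, 17.8% in E2C) and to the 10-exon isoform of Fbxw19 (70.4% and 50.9%). One share was called when E2C embryo 1 was left out.

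Of the 232 isoforms 139 passed the filter on low values. From oocyte to zygote 5 were called higher, beside 1.16% of all isoforms tested: the 10-exon isoform of Fbxw15 (1.24 ± 0.28, limma adjusted p = 0.00336), 2 of Fbxw28, 1 of Fbxw22 and a 5-exon one of Fbxw16. From zygote to E2C 15 were called lower (2.94% of all), among them the 10-exon isoforms of Fbxw19 (-1.83 ± 0.36), Fbxw18 (-1.67 ± 0.36), Fbxw22 (-1.34 ± 0.40) and Fbxw16 (-1.01 ± 0.37). Of Fbxw14 and Fbxw28 the 9-exon FSM isoforms without exon 6 were called (-1.30 ± 0.37 and -1.31 ± 0.37). Their 10-exon FSM isoforms had differences of -0.95 ± 0.34 and -0.91 ± 0.36 without a call. A 10-exon NNC isoform of each gene was called too (-1.41 ± 0.32 for Fbxw14, -1.13 ± 0.34 for Fbxw28), as was a 6-exon one of Fbxw28 (-1.02 ± 0.25). The share tests above give no call for the isoforms of these 2 genes. From E2C to L2C 67 were called lower (13.1% of all), including the 2 most abundant isoforms of 8 members. Of the other 2, the 10-exon isoform of Fbxw13 was not called, its other isoform did not pass the filter, and of Fbxw16 the 3-exon isoform was called and the 10-exon one not (-1.27 ± 0.49, limma adjusted p = 0.0385). After that 1 was called lower from L2C to 4-cell (Fbxw16, 10 exons, 1.68% of all), 0 of 139 in limma from 4-cell to 8-cell (7.93% in either direction, 1 member isoform at an unadjusted p under 0.05, no other tool run) and 1 higher from 8-cell to 16-cell (Fbxw14, 10 exons, 1.05%).

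The 4 other Fbxw genes of the cluster were lower in oocytes, at 20.4 ± 8.48 (SD, n = 10) for Fbxw27, 5.14 ± 4.37 for Fbxw21, 2.09 ± 1.53 for Fbxw25 and 0.689 ± 0.726 for Fbxw26. From oocyte to zygote Fbxw21 (1.25 ± 0.25, limma adjusted p = 0.000211) and Fbxw26 (1.04 ± 0.20, limma adjusted p = 0.000141) rose, as Fbxw15 did. With the run as a block neither stayed past the fold limit (0.91 and 0.83). Fbxw26 rose again from zygote (0.811, 1.83 and 4.53) to E2C (lowest 3.55, highest 13.4), with overlap and a difference of 1.503 ± 0.27 (limma, adjusted p = 5.99e-05), where no member rose and 4.52% of all genes did. All 4 fell from E2C to L2C, Fbxw27 by 3.87 on the log2 scale and Fbxw26 by 2.97.

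The machinery that F-box proteins join was followed in a list of 17 genes for the SCF core and its regulators and 10 F-box and WD repeat genes elsewhere in the genome. Of the 16 SCF genes tested (Cand2 did not pass the filter) none was called from oocyte to zygote or from zygote to E2C. Over all genes 2.92% were called higher in the first of these steps, and 2.75% lower and 4.52% higher in the second, so 0 of 16 lies near these shares. From E2C to L2C 9 fell and 1 rose, beside 22.8% and 25.6% of all genes. The 3 core subunits, named outside the rule for partners, after their values were seen, all fell: Skp1a (-2.32 ± 0.36), the adaptor that holds the F-box, Cul1 (-2.10 ± 0.29), the scaffold, and Rbx1 (-1.12 ± 0.27), the RING subunit that brings in the E2 enzyme. Nae1, a subunit of the enzyme that activates NEDD8 for attachment to cullins, had the largest fall among the SCF genes (-3.09 ± 0.32), and Cops5 (likewise named after its value was seen), the deneddylating subunit of the COP9 signalosome, rose (1.20 ± 0.44, limma adjusted p = 0.0153). The summed level of the SCF genes was 918 to 1162 copies in E2C cells and 279 to 478 in L2C cells.

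Among the F-box and WD repeat genes outside the cluster 8 were tested. None was called over the first 2 steps, near the shares over all genes given for the SCF genes. From E2C to L2C Fbxw9 (1.80 ± 0.36) and Fbxw2 (1.30 ± 0.41) rose. Fbxw4, named as the only other gene of the list with a call at that step, fell (-2.68 ± 0.38). Btrc, Fbxw7 and Fbxw11, also chosen after their values were seen, which encode well-known F-box proteins of signalling and cell-cycle control, had differences of 0.26, -0.21 and 0.21 without a call. The 10 genes of that list together held 35.7 to 58.6 copies in an oocyte, and Fbxw14, Fbxw24, Fbxw28 and Fbxw22 each held more than that in every oocyte.

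The genes whose levels ran most like the mean of the members over the 43 oocytes, zygotes and embryos were Plac8 (Pearson r = 0.976), Neil3 (0.976), Gm13023 (0.975), Slbp (0.970) and AA545190 (0.970), out of 11682 genes. The correlation is over log2(value + 1) and is given as a description over samples that share their stages and runs. Slbp, which binds the stem-loop at the end of histone mRNAs, averaged 693 copies in oocytes and 47.9 in L2C. Neil3, a DNA glycosylase, went from 68.5 in oocytes to 27.6 in E2C and 0.713 in L2C, and Plac8 from 112 to 96.4 and 3.80. The 5 differed from zygote to E2C, where the members had a median log2 difference of -1.01. Gm13023 went from 181 to 191, AA545190 from 114 to 125 and Slbp from 650 to 638. Plac8 went from 120 to 96.4 and Neil3 from 63.2 to 27.6.

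The 4th run read 4 intact oocytes, 6 samples of oocytes split into 1/2 and 6 of oocytes split into 1/4, with 129744 to 289774 UMIs each. Fbxw14 held 203, 245, 247, 221 copies per 100,000 UMIs in the intact oocytes, 187 to 224 in the 1/2 parts and 146 to 214 in the 1/4 parts, with overlap. Fbxw24 held 143, 167, 164, 163 in intact oocytes and 99.0 to 152 in the 1/4 parts. By edgeR's quasi-likelihood test 0 of the 9 members that passed the filter were called in the 1/2 parts (0.506% of 2767 genes) or the 1/4 parts (0.542%), and DESeq2 called 0 in both. At an unadjusted p under 0.05 there was 1 in the 1/2 parts (Fbxw19, log2 difference -0.42, edgeR adjusted p = 0.628) and 3 in the 1/4 parts (Fbxw14 -0.28, Fbxw24 -0.26, Fbxw28 -0.30). Parts may come from the same oocyte, in which case these p-values are too small.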

How the data were processed

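Full-length cDNA of single cells was read on 4 PacBio Sequel II chips, the first 3 with oocytes, embryos and mESCs and the 4th with intact and divided oocytes. Per the paper's methods, consensus reads were demultiplexed with scISA-Tools, aligned with minimap2 to mm10 (the build in the submitters' processing notes), collapsed with cDNA_Cupcake and filtered with SQANTI3, and isoforms in fewer than 5 cells were removed. The authors deposited gene and isoform values of the first 3 runs as CPM divided by 10 (UMIs per 100,000 of the cell), not pooled, and UMI counts per isoform for the 4th run. Some of those columns were entered as a score in the record of units, although the authors made them alike. Gene values sum to 100000 in every cell and isoform values to 84419 to 97144. Dividing by the value of 1 UMI gave whole UMIs for 100% of values in every column (tolerance 0.1), 4985 to 389775 per cell. Intervals and floors from these UMIs cover counting error only. The run is known for oocytes and zygotes, from the study's cell lists, and is not given in the sources used here for the other cells. The cell names hold no barcode, so barcodes shared by libraries were not counted.

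Cells were averaged per embryo, and stages compared with limma 3.58.1 (R 4.3.3; trend, array weights) on log2(value + 1), for features with at least 1 copy in at least 4 embryos. A call needed a log2 difference over 1 and an unadjusted p under 0.01. Isoform shares were tested on the arcsine square root scale at an adjusted p under 0.05, and the divided oocytes with edgeR 4.0.16 on the deposited counts. Identities were computed with Biopython 1.88. Alternatives were a pseudocount of 0.1 or 5, no filter, UMIs summed per embryo, no array weights, and edgeR and DESeq2 1.42.0 on recovered UMIs. Others were the run as a block, the sum of the isoforms, an adjusted p limit and each embryo of the groups of 4 or 5 left out. Added after seeing the data were leaving out the 2nd run or L2C embryo 1 and summing Fbxw14 with Fbxw28. Leaving out the 2nd run removed only oocyte 6 and zygotes 5 and 6. Any later cells of that run stayed in, since their run is not given. The tests were run on simulated data whose changes were all larger than the fold limit and that held no run effect. Those data do not cover differences near the limit. Named were all members, the 2 most abundant isoforms of each, the 4 neighbours, of the list of partners and neighbours together the 3 with the largest called fall (Fbxw27, Nae1, Fbxw26) and rise (Fbxw9, Fbxw26, Fbxw2) at either 2-cell step, and the 5 genes most like the members. The members and lists were chosen with earlier results of these data known.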

Additional observations from a re-analysis of the deposited data

Results flagged for a closer look

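Of 89 groups of 4 to 10 oocytes, zygotes, embryos or parts of oocytes of the 4th run examined for a value far from the others, 5 held one. Chance gives about 1 in 20. Oocyte 6 held 100.8 copies of Fbxw15 per 100,000 UMIs, where the other 9 oocytes held 14.7 to 32.8. The same oocyte held 43.3 copies of Fbxw16, the others 17.0 to 28.5. Zygote 5 held 118 copies of Fbxw15 and the other 8 zygotes 26.9 to 70.6. Oocyte 6 and zygote 5 were both read in the 2nd run, as 1 of 1 oocyte and 1 of 2 zygotes of that run. E2C embryo 1 held 84.3 copies of Fbxw15, the other 4 embryos 30.5 to 46.0. L2C embryo 1 held 5.56 copies of Fbxw18, which is 1 UMI in its single cell of 17971, and the other 5 held 0 to 1.66.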

How the results depend on the processing

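Log2 differences under the alternatives were counted for members called at a step and, from zygote to E2C, for all members. Members without a call at the other steps, and so all members from 4-cell to 8-cell, were left out of this count. Of the differences counted, 623 kept their direction and their side of the limits, 32 lost a call, 4 gained one and 4 turned. Of the 623, 287 were from E2C to L2C and 266 from zygote to E2C. The 4 gained and the 4 turned were all from zygote to E2C. From E2C to L2C no setting moved a count by over 1.5 times; a pseudocount of 5 called 9 members. From oocyte to zygote the 1 member called became 0 with edgeR, DESeq2 or the run as a block and 3 by adjusted p, and the 5 isoforms became 15 with a pseudocount of 0.1 and 3 with the run as a block. From zygote to E2C the 5 members became 3 with a pseudocount of 5 or the sum of the isoforms, and 2 to 6 with an embryo left out. From L2C to 4-cell the 1 member became 0 with either pseudocount, no filter or adjusted p, 2 with the sum of the isoforms and 0 to 2 with an embryo left out, and the 1 isoform 4 with a pseudocount of 0.1, 0 without a filter and 0 to 2 with an embryo left out. From 4-cell to 8-cell the 0 members became 3 with a pseudocount of 0.1 or no array weights. The count became 1 with the sum of the isoforms or without the oocyte and zygotes of the 2nd run, and 0 to 2 with an embryo left out. That run setting left out no 4-cell or 8-cell embryo. The 0 isoforms became 2 with a pseudocount of 0.1 and 1 without array weights, and the 5 partners became 3 with each. From 8-cell to 16-cell the 1 member became 0 with either pseudocount, no filter, no array weights, edgeR, DESeq2 or adjusted p, 2 with the sum of the isoforms and 0 to 3 with an embryo left out, and the 1 isoform 0 without a filter or array weights and 0 to 4 with an embryo left out. Of the partners and neighbours together, 2 were called from oocyte to zygote, both neighbours (Fbxw21 and Fbxw26), and 1 without array weights. The 0 isoform shares from zygote to E2C became 0 to 1 with an embryo left out. Fbxw13 turned from -0.06 (zygote to E2C) to 0.060 without a filter, 0.077 without array weights and 0.077 without the 2nd run, and spanned -0.18 to 0.13 with an embryo left out (0.13 without E2C embryo 4). The causes were not tested. Depth limits the late stages, where the shallowest cell held 4985 UMIs. No paired analysis was possible because embryo numbers do not tie an embryo of 1 stage to an embryo of another.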
